A study of Mus musculus with 14 samples.

Results

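Esco1, Esco2, Clspn, Timeless, Tipin, Wdhd1, Dscc1, Chek1, Smc1a and Smc3 act where DNA replication forks meet the checkpoint and sister chromatid cohesion. These 10 genes were read by 14 probes, out of 34947 genes and 55681 probes that were not controls on the array. They were picked by gene name, with results of these data known, and the choice included genes that were lower with both siRNAs than with the control siRNA (Esco2, Clspn and Timeless). The values that made that choice, the differences of either siRNA from the control siRNA, are therefore given here as a description, with errors but no p-value. Counts of genes past a threshold there are printed with the share over all genes, and nothing is read from them.

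A moving replication fork is accompanied by the fork protection complex, in which Timeless and Tipin form a pair that holds the helicase and the polymerases together. Claspin, the product of Clspn, rides with that pair and hands the signal of the kinase ATR on to Chk1, the checkpoint kinase encoded by Chek1. Behind the fork the new sister chromatids are tied by cohesin, a ring built on the subunits Smc1a and Smc3, and the acetyltransferases Esco1 and Esco2 make the ring hold by acetylating Smc3. Esco2 does so during S phase, Dscc1 belongs to an alternative clamp loader for PCNA that cohesion needs, and Wdhd1 links the helicase to DNA polymerase alpha.

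The samples were cultures of mSCC-38, a mouse cell line from a skin squamous cell carcinoma raised with DMBA and TPA. All came from the same line grown in serum-containing medium, and no genetic change was described for any group. Si2AK (3 arrays) and Si1AK (4 arrays) are distinct siRNAs directed at the transcript AK144841, SiC (3 arrays) is a control siRNA, and NT (4 arrays) cells were not transfected. The transfected groups received RNAimax, a lipid reagent, and were collected 72 h later, while no time is given for NT. No probe for AK144841 was analysed here, and its level gives no check on the labels. The labels do not state whether replicate arrays came from separate cultures, and p-values then reflect array-to-array spread that could be technical.

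Each array measured 1 RNA sample in 1 colour. A level below is log2 of a probe's processed signal minus the 75th percentile of that array, so 0 is the signal that 75% of spots do not exceed, and a difference is the first named group minus the second, with the standard error of limma. Levels of different probes depend on the probe and are not set against each other. The arrays lay on 2 slides of 7. SiC replicate 1 and Si2AK replicate 2 stood apart, with 90.52% and 84.88% of spots well above background against 52.65% to 60.1% on the other 12 arrays. Some results that rest on these arrays, but not all, are also given without them. Of the keratinocyte markers, Krt5, Krt14 and Trp63 were well above background on 14 of 14 arrays, although Cdh1 was so on 2 and Dsg3 on 8. Their linear signals relative to the 75th percentile of the array, summed over 12 markers, were 933 to 971 in Si2AK, 715 to 808 in Si1AK, 655 to 845 in SiC and 844 to 978 in NT. Of the markers of other cell types, Tyrp1 was well above background on 0 arrays, Lyz2, Lum, Postn, Dct and Tek on 2, and Ptprc, Thy1 and Emcn on 3. Sox10 was so on 6, Col3a1 and Vwf on 9, and Dcn and Pmel on 13. Those on 14 were Pdgfra, Col1a1, Col1a2, Kdr, Pecam1, Cdh5, Itgam, Cd68, Cd3e, Csf1r, Cd14, Mitf, Tyr and Mlana. Between 3 and 5 markers of each of the fibroblast, endothelial and melanocyte lists were well above background on every array of a group. On the same linear scale the sum of 7 melanocyte markers ran from 3.9 to 4.18 in Si2AK, 2.27 to 2.55 in Si1AK, 2.37 to 2.66 in SiC and 2.07 to 2.4 in NT, and that of 8 fibroblast markers from 1.55 to 2.05, 1.06 to 1.51, 1.01 to 1.76 and 0.844 to 1.05 in the same groups. The 7 leukocyte markers that were well above background on any array summed to 14.1 to 14.8 in Si2AK, 16.5 to 18.3 in Si1AK, 14 to 18.3 in SiC and 15.3 to 18 in NT, and 5 of them were so on every array. Endothelial markers (6) summed to 8.86 to 11.6 in Si2AK, 7.91 to 9.43 in Si1AK, 8.43 to 9.62 in SiC and 8.97 to 13.2 in NT. The part of these markers in the results below was not tested. In a bulk culture, fewer cells that express a gene and less RNA per cell cannot be told apart.

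The stretches below show what was hybridised for Esco2, Clspn, Timeless, Tipin and Dscc1. Each is 30 of the 60 bases of a probe as the array design lists it, 5′ to 3′, with the polyadenylation signal words AATAAA and ATTAAA in capitals. Either word was present in 6 of the 14 probes of the 10 genes, against 13.7% of all 55681 probes.
Esco2, mm9 chr14:66438198-66438257, minus strand: attacatgaaaatgctggtaggtaattgaa
Clspn, mm9 chr4:126270723-126270782, plus strand: ccagtagaatttAATAAAaacgttgaagag
Timeless brightest probe, mm9 chr10:127689823-127689882, plus strand: ATTAAAagacatgtcctgaactgagcttgg
Timeless second probe, mm9 chr10:127689917-127689976, plus strand: tacgcgtgggccAATAAAtgtaatttaaaa
Tipin, mm9 chr9:64152311-64152370, plus strand: agaatcctgcaagcttggggttacttgtag
Dscc1, mm9 chr15:54907709-54907768, minus strand: atgcaaaatggcATTAAAgtttataattcc
The 2 Timeless probes are neighbours in the genome and share no base. Esco1 also had more than 1 probe well above background, and Wdhd1 had a second probe that was well above background on 0 of 14 arrays and was not tested.

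The first comparison asked how the 10 genes stood in cells given either siRNA against AK144841 beside cells given the control siRNA. Timeless, Clspn and Esco2 were lower with both siRNAs, by 1.66 to 2.34 times, and Tipin and Dscc1 were lower by 1.76 and 1.93 times with Si2AK. Smc1a, Smc3, Wdhd1 and Esco1 differed by less. With limma at an adjusted p below 0.05, 5 of the 10 genes were called lower and 0 higher in Si2AK, where 4.67% of all 21356 genes were called lower and 8.52% higher. In Si1AK 3 were called lower and 0 higher, where 1.22% of genes were called lower and 3.17% higher. The 3 called lower with both siRNAs were Esco2, Clspn and Timeless, a pattern shown by 0.421% of genes. All arrays lay below all SiC arrays for 6 of the 10 in Si2AK and 5 in Si1AK, as they did for 9.33% and 8.88% of genes. These contrasts chose genes, so the counts only describe that choice. Quantile normalization split all calls in Si2AK against SiC into 1399 lower and 1671 higher, beside 998 and 1820. The median difference of the 10 genes was -0.73 in Si2AK and -0.33 in Si1AK, beside -0.02 and -0.06 over all genes.

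Timeless, the scaffold of the fork protection complex, had levels of 1.74, 1.43 and 1.74 in Si2AK, 1.86, 1.91, 2.26 and 2.19 in Si1AK, 2.59, 2.90 and 2.88 in SiC, and 2.78, 2.73, 3.04 and 2.95 in NT. Every array of either siRNA lay below every SiC and NT array, and the Si2AK arrays lay below the Si1AK arrays. The difference from SiC was -1.15 ± 0.14 in Si2AK and -0.73 ± 0.13 in Si1AK. The second Timeless probe gave -1.15 ± 0.096 and -0.76 ± 0.09 for the same contrasts, so the probes differed by under 0.03 in each contrast.

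Tipin, the partner of Timeless, had levels of 3.70, 3.56 and 3.81 in Si2AK, 4.31, 4.09, 4.35 and 4.35 in Si1AK, 4.30, 4.66 and 4.55 in SiC, and 4.50, 4.58, 4.77 and 4.56 in NT. The Si2AK arrays lay below all others, while Si1AK overlapped SiC at the SiC array of raised signal. Its difference from SiC was -0.81 ± 0.12 in Si2AK and -0.23 ± 0.11 in Si1AK.

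Clspn, which encodes the mediator between ATR and Chk1, had levels of -1.46, -1.37 and -1.38 in Si2AK, -1.55, -1.60, -1.04 and -1.20 in Si1AK, -0.24, -0.57 and -0.56 in SiC, and -0.54, -0.31, -0.74 and -0.53 in NT. Both siRNA groups lay wholly below both groups without them and overlapped each other. The difference from SiC was -0.95 ± 0.16 in Si2AK and -0.89 ± 0.15 in Si1AK. Within slides it was -1.18 and -0.81 in Si2AK, and -1.34 and -0.55 in Si1AK, on slides 1 and 2.

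Esco2, the S-phase cohesin acetyltransferase, had levels of -1.20, -1.45 and -0.97 in Si2AK, -1.15, -1.34, -0.96 and -0.89 in Si1AK, 0.22, 0.08 and -0.24 in SiC, and -0.91, -0.70, -0.25 and -0.64 in NT. The siRNA arrays lay below every SiC array, but SiC itself lay above every NT array, so the size of the difference depends on which of these it is set against. Against SiC it was -1.22 ± 0.19 in Si2AK and -1.11 ± 0.18 in Si1AK. Within slides, it was -1.54 on slide 1, where SiC is the array of raised signal alone, and -0.89 on slide 2 for Si2AK, and -1.47 and -0.85 for Si1AK.

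Dscc1, the subunit that marks the alternative clamp loader, had levels of 0.10, -0.21 and 0.13 in Si2AK, 0.44, 0.53, 0.68 and 0.75 in Si1AK, 0.79, 1.09 and 0.98 in SiC, and 1.02, 1.24, 1.09 and 1.02 in NT. No group overlapped the next except SiC and NT, with Si2AK lowest and Si1AK between. The difference from SiC was -0.95 ± 0.12 in Si2AK and -0.35 ± 0.12 in Si1AK. Without both arrays of raised signal the Si1AK difference was -0.43.

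**Figure D1:**
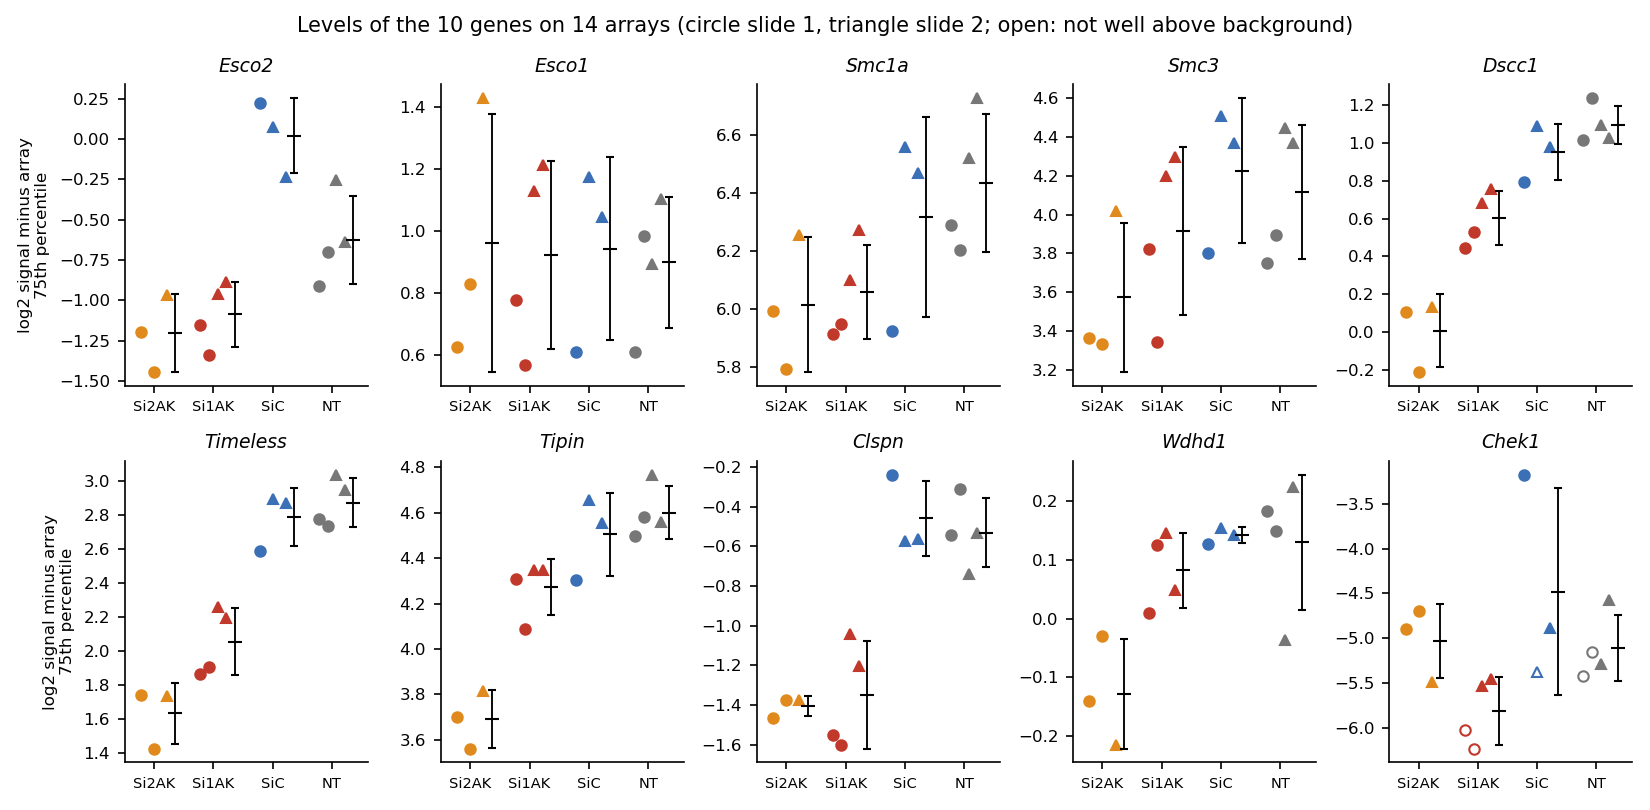
Levels (log2 processed signal minus the 75th percentile of the array, a separate vertical axis per gene) of the 10 genes on 3 Si2AK, 4 Si1AK, 3 SiC and 4 NT arrays, with circles for slide 1, triangles for slide 2, open symbols for spots not well above background, and mean ± SD in black. Timeless and Dscc1 step down through Si1AK to Si2AK, Clspn and Esco2 sit at like levels in both siRNA groups, and the Smc1a and Smc3 points separate by slide within each group.

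Wdhd1, which couples the helicase to DNA polymerase alpha, had levels of -0.14, -0.03 and -0.22 in Si2AK, 0.01, 0.12, 0.15 and 0.05 in Si1AK, 0.13, 0.16 and 0.14 in SiC, and 0.18, 0.15, -0.04 and 0.22 in NT. The groups lie close together, with the Si2AK arrays at the low end, below every Si1AK and SiC array. The probe takes its 60 bases from 234 bases of genome (mm9 chr14:47864781-47865014), so its ends fall in different exons. Its difference from SiC was -0.27 ± 0.085 in Si2AK and -0.06 ± 0.079 in Si1AK.

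The cohesin subunits differed from SiC by less than Timeless, Clspn and Esco2 did, with either siRNA. Smc1a had levels of 5.99, 5.79 and 6.25 in Si2AK, 5.91, 5.95, 6.10 and 6.27 in Si1AK, 5.92, 6.56 and 6.47 in SiC, and 6.29, 6.20, 6.52 and 6.73 in NT. Smc3 had levels of 3.37, 3.34 and 4.02 in Si2AK, 3.82, 3.34, 4.20 and 4.30 in Si1AK, 3.80, 4.50 and 4.37 in SiC, and 3.75, 3.90, 4.45 and 4.37 in NT. The groups overlapped for both genes, and within each group the slide 2 arrays were the higher ones. Within either slide the Smc3 levels of Si2AK lay below those of SiC and NT, which those of Smc1a did not. Differences from SiC were -0.30 ± 0.19 in Si2AK and -0.26 ± 0.18 in Si1AK for Smc1a, and -0.65 ± 0.3 and -0.31 ± 0.28 for Smc3. Si2AK had more of its arrays on slide 1 and SiC more on slide 2. With slide as a block the differences were -0.18 in Si2AK and -0.20 in Si1AK for Smc1a, and -0.44 and -0.20 for Smc3.

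Esco1, the acetyltransferase that acts also outside S phase, had levels on its brightest probe of 0.63, 0.83 and 1.43 in Si2AK, 0.78, 0.57, 1.13 and 1.21 in Si1AK, 0.61, 1.17 and 1.04 in SiC, and 0.61, 0.98, 0.89 and 1.10 in NT. The 4 groups covered the same range, with means between 0.90 and 0.96. The difference from SiC was 0.02 ± 0.24 in Si2AK and -0.02 ± 0.22 in Si1AK, and on the second probe -0.08 ± 0.16 and -0.01 ± 0.15. A difference as small as these standard errors was not detectable. The third Esco1 probe was dim, well above background on 1 of 3 Si2AK, 4 of 4 Si1AK, 0 of 3 SiC and 0 of 4 NT arrays. It passed the filter on dim probes only through Si1AK, which favours a higher value there. Measured means were -5.21 in Si1AK and -6.23 in NT, a difference that was not called (limma adjusted p = 0.143 over all probes). Set against the lowest signal well above background on each NT array, the Si1AK mean was 1.14-fold higher. No such bound above 1 could be set for the other comparisons. Because the filter favoured Si1AK, nothing is read from these values.

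Chek1, the checkpoint kinase, was dim and its values are the least firm of the 10. Its levels were -4.90, -4.70 and -5.49 in Si2AK, -6.02, -6.23, -5.53 and -5.45 in Si1AK, -3.18, -5.38 and -4.89 in SiC, and -5.42, -5.15, -5.29 and -4.58 in NT. The probe was well above background on 9 of 14 arrays and passed the filter on dim probes only through Si2AK. The highest value is that of SiC replicate 1, an array of raised signal. The difference from SiC was -0.55 ± 0.47 in Si2AK and -1.33 ± 0.44 in Si1AK, and without both arrays of raised signal it was -0.06 and -0.68.

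**Figure D2:**
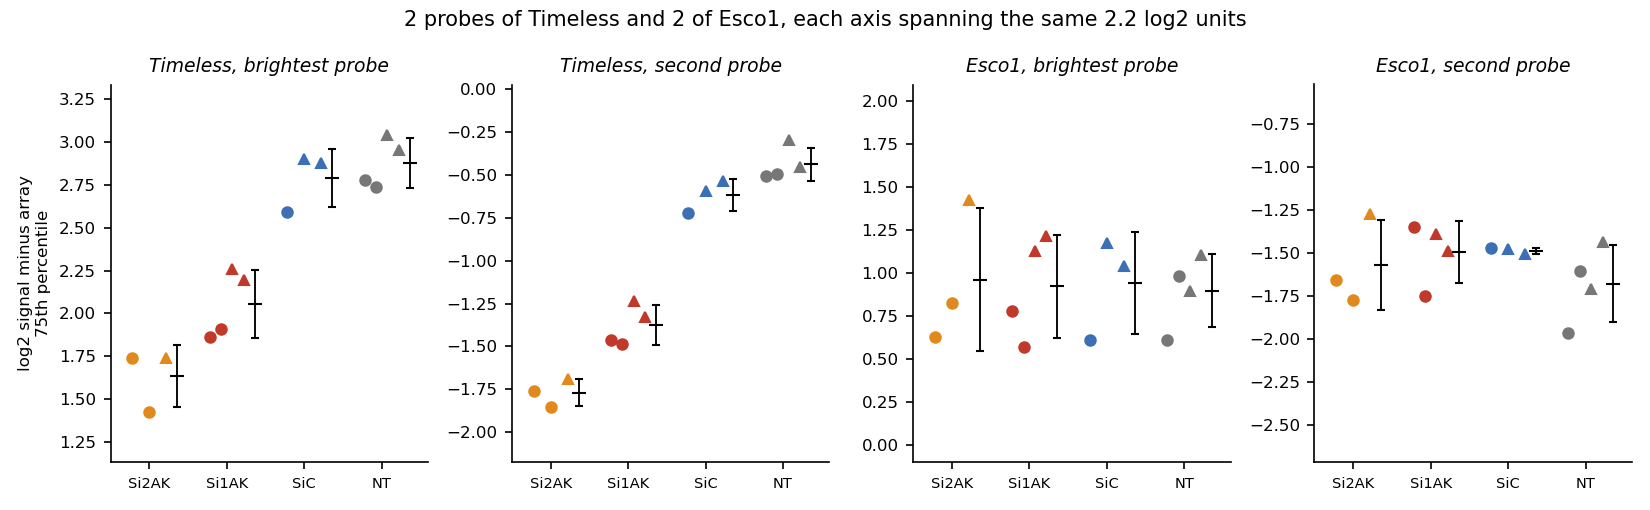
Levels (log2 processed signal minus the 75th percentile of the array) on 2 Timeless probes and the 2 brighter Esco1 probes in the Si2AK, Si1AK, SiC and NT arrays, with circles for slide 1, triangles for slide 2 and mean ± SD in black. Each vertical axis spans 2.2 log2 units, and both Timeless probes show the same order of groups while both Esco1 probes overlap in all 4 groups.

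Untransfected cells gave a second baseline. The siRNA arrays took part in the choice of genes, so these tests are not independent of that choice. Timeless, Clspn and Dscc1 were lower than in NT with both siRNAs, Tipin with Si2AK. In Si2AK, 6 of the 10 genes were called lower and 0 higher, where 7.68% of all genes were called lower and 7.97% higher. In Si1AK, 3 were called lower and 0 higher, where 3.03% were called lower and 4.03% higher. Clspn, Timeless and Dscc1 were called lower with both siRNAs, as were 1.6% of genes. All siRNA arrays lay below all NT arrays for 5 of the 10 in Si2AK and 5 in Si1AK, as they did for 12.7% and 12.2% of genes. All-gene medians were 0.02 and -0.09, against medians of -0.56 and -0.42 for the 10 genes.

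Timeless differed from NT by -1.24 ± 0.13 in Si2AK (adjusted p = 0.000156) and by -0.82 ± 0.12 in Si1AK (adjusted p = 0.00271), and its second probe by -1.33 ± 0.09 and -0.94 ± 0.083. Those differences held within each slide in size, at -1.17 and -1.26 for Si2AK and -0.87 and -0.77 for Si1AK on slides 1 and 2, though the Si1AK call was lost on either slide alone (adjusted p = 0.106 and 0.0549). Clspn differed by -0.87 ± 0.15 in Si2AK (adjusted p = 0.00232) and -0.82 ± 0.14 in Si1AK (adjusted p = 0.00478). For Clspn in Si1AK the value was -1.15 on slide 1 and -0.49 on slide 2, called on neither slide alone (adjusted p = 0.0707 and 0.145). Dscc1 differed by -1.09 ± 0.12 in Si2AK (adjusted p = 0.000136) and -0.49 ± 0.11 in Si1AK (adjusted p = 0.0174). The Dscc1 call in Si1AK was lost without Si1AK replicate 1 (-0.44), Si1AK replicate 2 (-0.47) or NT replicate 2 (-0.44).

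Tipin was -0.91 ± 0.11 below NT in Si2AK (adjusted p = 0.000289) and had a difference of -0.33 ± 0.1 in Si1AK (adjusted p = 0.0823). The Si1AK difference was called with slide as a block (adjusted p = 0.0225) and also without both arrays of raised signal. Esco2 differed by -0.58 ± 0.18 in Si2AK (adjusted p = 0.0476) and by -0.46 ± 0.16 in Si1AK (adjusted p = 0.128). The Esco2 call in Si2AK rested on single arrays: it was lost without Si2AK replicate 1 (-0.58) or 2 (-0.46), without NT replicate 2 (-0.60), 3 (-0.45) or 4 (-0.58), and without both arrays of raised signal (-0.46, adjusted p = 0.123). Wdhd1 differed by -0.26 ± 0.079 in Si2AK (adjusted p = 0.0464) with groups that overlapped, and kept that call in 5 of 20 alternatives. In Si1AK its difference was -0.05 ± 0.073.

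Smc1a differed from NT by -0.42 ± 0.18 in Si2AK (adjusted p = 0.159) and -0.38 ± 0.17 in Si1AK (adjusted p = 0.223), and Smc3 by -0.54 ± 0.28 (adjusted p = 0.255) and -0.20 ± 0.26 (adjusted p = 0.712). With slide as a block, Smc1a was called lower in Si2AK (-0.36, adjusted p = 0.0221) and Si1AK (-0.38, adjusted p = 0.02), and Smc3 in Si2AK (-0.43, adjusted p = 0.0139). Slide 2 stood above slide 1, with the groups in the fit, by 0.63 ± 0.074 for Smc3, 0.45 ± 0.092 for Esco1, 0.38 ± 0.066 for Smc1a and 0.26 ± 0.058 for Timeless, a contrast looked at after the pattern was seen, in which 8.51% of all genes were called. Esco1 differed from NT by 0.06 ± 0.22 in Si2AK and 0.02 ± 0.21 in Si1AK. Chek1 differed by 0.08 ± 0.44 and -0.70 ± 0.41, neither called.

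**Figure D3:**
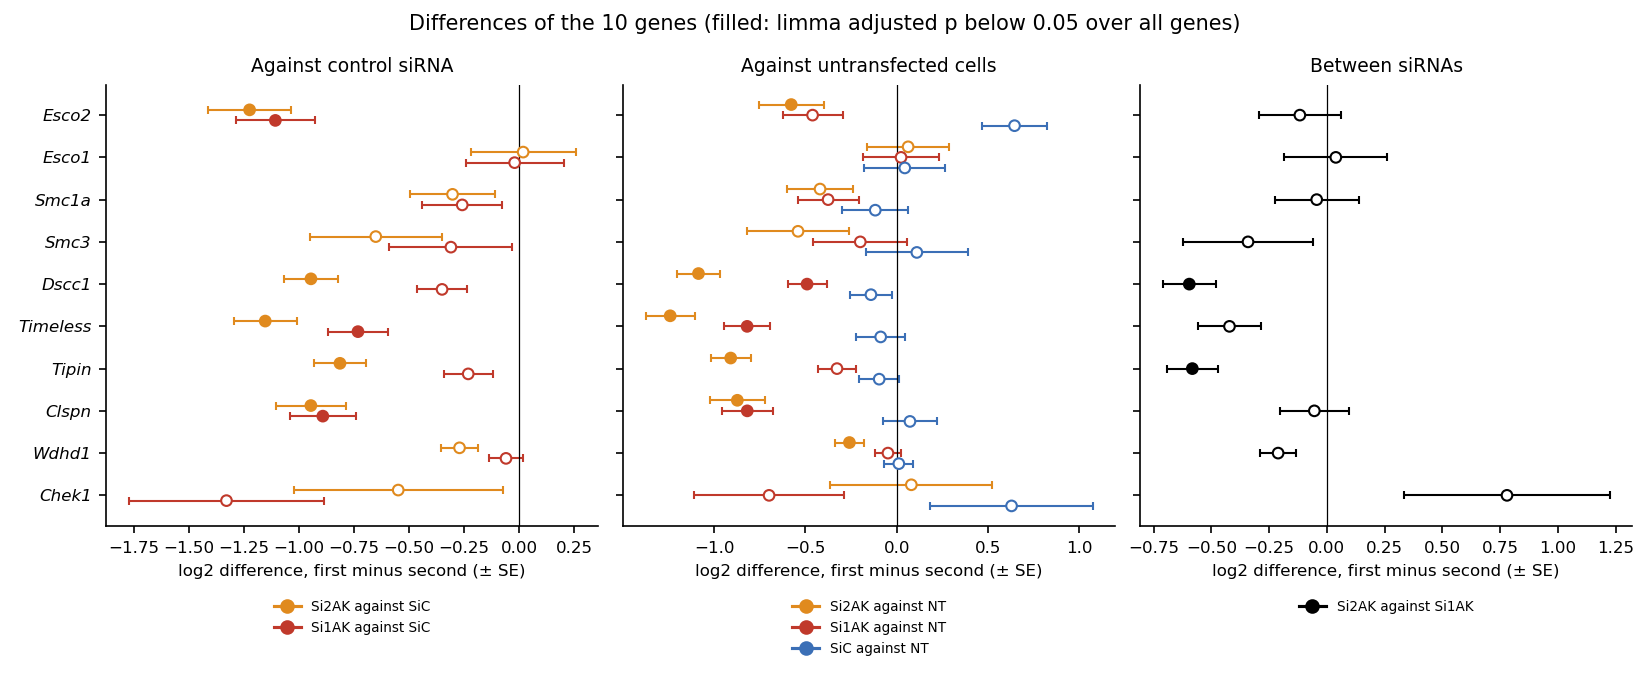
Differences (log2, first group minus second, ± SE of limma) of the 10 genes against SiC, against NT and between the siRNAs, with filled points where the adjusted p over all genes was below 0.05. The left panel holds the contrasts that chose genes. In the middle panel Timeless is lowest in Si2AK at -1.24, and SiC differs from NT most for Esco2 at 0.65.

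Whether the control transfection itself moved these genes was asked by SiC against NT. None of the 10 was called by limma, and 0% of all 21356 genes were, with 1584 genes and 1 of the 10 at an unadjusted p below 0.05. That gene was Esco2, at 0.65 ± 0.18 (adjusted p = 0.636), whose 3 SiC arrays lay above all 4 NT arrays, as they did for 1.67% of all genes. The difference was 1.03 on slide 1 and 0.37 on slide 2, and 0.55 to 0.77 with each array left out in turn. The SiC arrays are also those that chose Esco2 as lower with the siRNAs, so the contrasts share those values. Clspn, Timeless, Tipin, Wdhd1, Dscc1, Smc1a, Smc3 and Esco1 differed by -0.14 to 0.11, and Chek1 by 0.63 ± 0.44. Without SiC replicate 1, the SiC array of raised signal, the Chek1 difference was -0.02.

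The siRNAs differed from each other for Tipin and Dscc1, and for Timeless when slide was a block. Both were lower in Si2AK than in Si1AK, Tipin by -0.58 ± 0.11 (adjusted p = 0.00485) and Dscc1 by -0.60 ± 0.12 (adjusted p = 0.00552), in 3 of 3 Si2AK arrays below 4 of 4 Si1AK arrays. These were 2 of the 10 called lower and 0 higher, where 6.15% of all genes were called lower and 6.33% higher, and the all-gene median was 0.10. All Si2AK arrays lay below all Si1AK arrays for 4 of the 10 genes, as for 12% of genes. Both calls were made with each array left out in turn, at -0.64 to -0.52 for Tipin and -0.66 to -0.49 for Dscc1. Within slides 1 and 2 the values were -0.57 and -0.53 for Tipin and -0.54 and -0.59 for Dscc1, called on neither slide alone. Timeless differed by -0.42 ± 0.13 (adjusted p = 0.0649) on its brightest probe and -0.39 ± 0.09 (adjusted p = 0.0164 over all probes) on its second. With slide as a block the brightest probe gave -0.38 (adjusted p = 0.00955), and within slides -0.30 and -0.49. Clspn at -0.05 ± 0.15 and Esco2 at -0.12 ± 0.18 were within 1 standard error of 0.

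The same question was asked of other genes of these pathways, in 5 lists of 87 genes, of which 83 passed the filter on dim probes. The lists were drawn up with earlier results of these data known and hold none of the 10 genes. Against NT, 50 of the 83 were called lower in Si2AK, where 7.68% of all genes were, and 29 in Si1AK, where 3.03% were. None of the 83 was called higher in either, beside 7.97% and 4.03% of all genes. Against SiC, 36 were called lower in Si2AK and 5 in Si1AK, beside 4.67% and 1.22% of all genes, and 0 higher. The count of 5 was 17 without both arrays of raised signal and 10 with slide as a block. With each array scaled to its median 0 of the 83 were called, and list medians in Si1AK against NT turned to 0.0044 to 0.38, beside an all-gene median of 0.37. In SiC against NT 0 were called. In Si2AK against Si1AK 15 were called lower and 1 higher, beside 6.15% and 6.33% of all genes.

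Of the replisome genes and PCNA loaders, 24 of 30 were called lower than NT in Si2AK and 13 in Si1AK, with medians of -0.66 and -0.37. Without Si1AK replicate 1 the Si1AK count was 8. It was 17 without both arrays of raised signal and 16 with slide as a block. Gins1, a subunit of the GINS part of the helicase, averaged 2.173 in Si2AK, 2.422 in Si1AK, 2.966 in SiC and 2.997 in NT, a difference from NT of -0.82 ± 0.086 in Si2AK (adjusted p = 0.000127) and -0.58 ± 0.08 in Si1AK (adjusted p = 0.00158). The helicase subunits Mcm7 and Mcm3 differed from NT by -0.79 ± 0.097 and -0.67 ± 0.083 in Si2AK and by -0.60 ± 0.09 and -0.51 ± 0.077 in Si1AK.

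Genes that keep or release cohesion in mitosis were called lower than NT in 8 of 10 cases with either siRNA, with medians of -0.50 in Si2AK and -0.45 in Si1AK. That count depended on single arrays: in Si2AK it was 4 without Si2AK replicate 2 or 3, and in Si1AK it was 4 without Si1AK replicate 1 or 2 and 5 without Si1AK replicate 3 or 4 or NT replicate 2 or 4. Cdca5, which encodes sororin, the protein that protects acetylated cohesin from release, differed by -0.61 ± 0.11 in Si2AK (adjusted p = 0.00246) and -0.60 ± 0.098 in Si1AK (adjusted p = 0.00371). Aurkb, the kinase of the chromosomal passenger complex, differed by -0.71 ± 0.15 and -0.84 ± 0.14. Pttg1, the securin that restrains separase, fell by 0.44 in Si1AK (SE 0.087, adjusted p = 0.0101) and had a difference of -0.30 ± 0.094 in Si2AK (adjusted p = 0.0513).

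In ATR to Chk1 signalling, 8 of 17 genes were called lower than NT in Si2AK and 4 in Si1AK, where the medians were -0.40 and -0.26. The Si1AK count was 7 without both arrays of raised signal. Cdc25c, a phosphatase that Chk1 restrains, differed by -0.54 ± 0.12 in Si2AK and -0.70 ± 0.11 in Si1AK. Rpa2, a subunit of the single-strand binding protein RPA, differed by -0.72 ± 0.097 and -0.50 ± 0.09, and Cdk2, the S-phase cyclin-dependent kinase, by -0.40 ± 0.073 and -0.40 ± 0.068. Adjusted p for these 3 genes ran from 0.000528 to 0.00885.

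Of the genes for fork protection by BRCA proteins and fork remodelling, 8 of 15 were called lower than NT in Si2AK and 3 in Si1AK, with medians of -0.49 and -0.26. Without Si2AK replicate 2 the count was 5, and without Si1AK replicate 1 or 2 it was 1. Without both arrays of raised signal the Si1AK count was 5. Fanci differed by -0.95 ± 0.11 in Si2AK and -0.50 ± 0.1 in Si1AK, and by -0.45 ± 0.11 between Si2AK and Si1AK (adjusted p = 0.0201). Zranb3, a fork-remodelling translocase, differed from NT by -1.01 ± 0.14 and -0.61 ± 0.13, and Bard1, the partner of BRCA1, by -0.68 ± 0.16 and -0.59 ± 0.15.

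The cohesin ring, its loader and its release factors were mostly not called: 2 of 11 genes were lower than NT in Si2AK and 1 in Si1AK, with medians of -0.15 and -0.07. The gene called in Si1AK was Ctcf, the factor that positions cohesin loops, at -0.40 ± 0.093 in Si2AK (adjusted p = 0.0123) and -0.35 ± 0.086 in Si1AK (adjusted p = 0.0312). The Si1AK call of Ctcf was lost when any 1 of the 4 Si1AK or 4 NT arrays was left out, and the Si2AK count was 1 without Si2AK replicate 2. Without both arrays of raised signal the Si1AK count was 2.

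**Figure D4:**
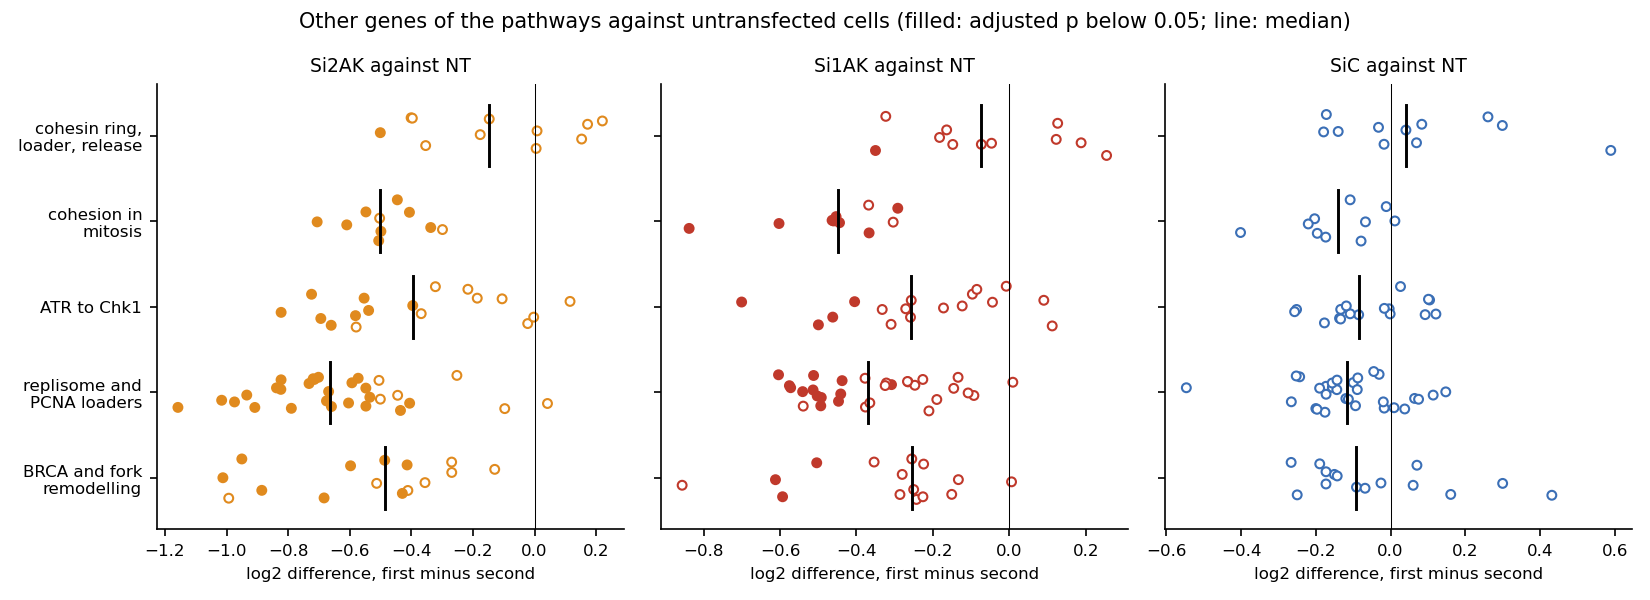
Differences from NT (log2, first group minus second) of 83 other genes in 5 pathway lists for Si2AK, Si1AK and SiC, with filled points where the adjusted p over all genes was below 0.05 and a black line at the median of each list. Replisome genes lie lowest in Si2AK with a median of -0.66, the cohesin ring list is near 0 at -0.15, and no gene is filled in SiC.

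Genes whose level followed that of Esco2 over the arrays were ranked by Pearson r among 14441 genes with a symbol, as a description, since arrays share groups and slides. Over 14 arrays the nearest were Polr3f (0.939), Ppwd1 (0.931), Bbip1 (0.907), Kbtbd8 (0.894) and Nemp2 (0.883). Over the 12 arrays without the raised signal they were Nsd1 (0.927), Smchd1 (0.92), Med6 (0.919), Fam111a (0.917) and Polr3f (0.913), so 1 of the 5 was shared. Of the other 9 genes, Clspn (0.8) and Timeless (0.78) came nearest over 14 arrays, at ranks 43 and 66, and Esco1 (0.164) came last, at rank 4671. Over the 12 arrays Smc1a, Timeless and Smc3 came nearest, each at 0.818 and at ranks 128, 130 and 131. Clspn (0.737) was then at rank 412, and Wdhd1 (0.296) came last, at rank 3947. Esco2, Clspn and Timeless were chosen as lower with both siRNAs, so likeness among them is partly built in.

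RefSeq promoter windows of 250 bases before to 50 after the start (GRCm38.p6) lay within 23 bases of the annotated gene start for Clspn, Wdhd1, Chek1, Smc1a and Smc3, and a Timeless entry lay 6003 bases inside the gene. They were searched on both strands for E2F sites (TTTCCCGC, TTTGGCGC, TTTCGCGC or TTTGCCGC), the CHR words TTTGAA or TTCGAA, and the CCAAT box (CCAAT). E2F words were found in 2 of the 5 windows against 2.3% of 32851 promoters, CCAAT in 2 of 5 against 37.4%, and CHR words in 0 of 5 against 19.2%. The Timeless entry, with 0 matches, was left out of the 5, while the 32851 were not limited to windows at a gene start. The E2F words lie in these 30 bases, on the plus strand of the genome, with the word in capitals.
Clspn, chr4:126556990-126557019: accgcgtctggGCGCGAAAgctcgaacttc
Smc1a, chrX:152016448-152016477: cggcttgcactgcgctaTTTCCCGCgcggg
A match describes the letters only. Against NT, Clspn was called lower with both siRNAs and Smc1a with neither.

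**Figure D5:**
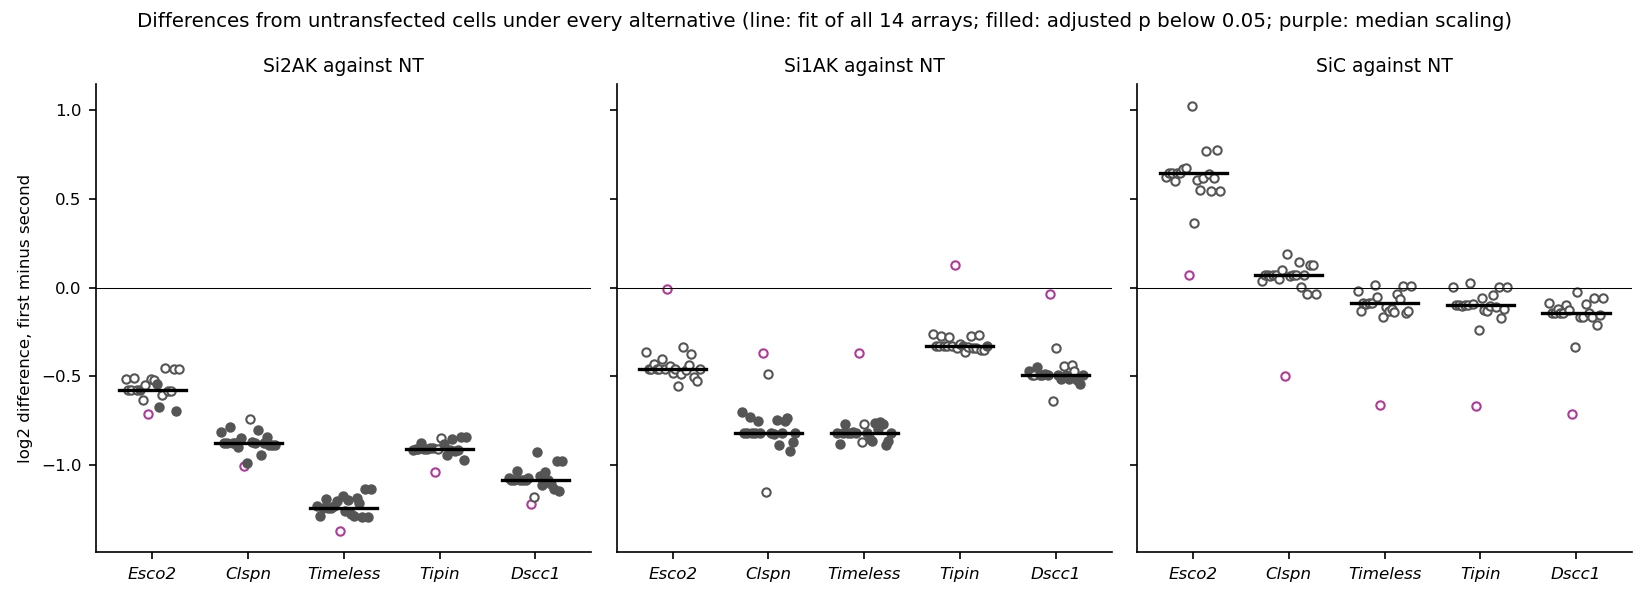
Differences from NT (log2, first group minus second) of 5 genes for Si2AK, Si1AK and SiC under each alternative processing, with a black line for the fit of all 14 arrays, filled points at adjusted p below 0.05 and purple for scaling to the median of each array. Timeless in Si2AK stays between -1.37 and -1.14 and is called in 19 of 20 alternatives, while Esco2 in Si2AK is called in 4 of 20.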

How the data were processed

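RNA (0.2 µg per sample) was labelled with Cy3 and hybridised to 1-colour Agilent arrays. Per the file headers, the deposited processed signal is an intensity from which Feature Extraction 10.7.3.1 removed background and spatial trend, with no scaling between arrays. Raw mean and background intensities and 0 or 1 marks for spots (other than intensity) are given too, per the file headers. The authors also deposited a table of log2 values, for which limma is named in the submitters' processing notes, with no version and with the background step unknown.

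Of 62976 spots, 59305 were not controls. Uneven or outlying spots were left out and spots of a probe averaged. Log2 processed signal minus the 75th percentile of the array was fitted over all 14 arrays with limma 3.58.1 in R 4.3.3 (lmFit, eBayes, 10 residual degrees of freedom), adjusted by Benjamini-Hochberg over 21356 genes and called below 0.05. A probe entered (30299 did) when all arrays of 1 or more groups read it well above background, and the brightest kept probe stood for its gene. The fit was tested on simulated data, where some changed genes were not called, and the limit set on the share recovered was replaced after its result was seen. The number of arrays limits precision.

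The 10 genes, the lists and the alternatives were chosen with earlier results of these data known. All 10 genes are named in every comparison. Of each other list, the 3 called genes with the largest absolute moderated t in SiC against NT or Si1AK against NT are named, and the cohesin list had 1. Esco1 sequence and 1 leukocyte marker are not reported here.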

Additional observations from a re-analysis of the deposited data

Results flagged for a closer look

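Tipin was at 4.09 in Si1AK replicate 2, while the other 3 Si1AK arrays were at 4.31 to 4.35, which put that array far from the others by Dixon's test at a critical value of 0.829. The 10 genes in the groups of 4 arrays gave 20 such tests, and chance flags about 1 in 20. Tipin was also lower in Si2AK than in Si1AK, at -0.58 on the log2 scale, and Dscc1 at -0.60, both past the threshold in a direct test of the siRNAs against each other.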

How the results depend on the processing

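Over 60 differences and 1194 alternative values, 84 lost a call, 20 gained one and 2 reversed a called direction. Direction changed in 100 of the 1194, of which 98 were of differences that were not called. Scaling to the median of each array moved the all-gene median to 0.42 in Si2AK against SiC, 0.97 in Si1AK against SiC, -0.49 in Si2AK against Si1AK, -0.11 in Si2AK against NT and 0.37 in Si1AK against NT. With it 0 genes of the 10 were called lower in any of these comparisons, against 5, 3, 2, 6 and 3, and Clspn (0.13) and Timeless (0.29) were reversed in Si1AK against SiC, while relative to the all-gene median they stood at -0.83 and -0.67. On each slide alone 1 group has a single array (SiC on slide 1, the array of raised signal, and Si2AK on slide 2), which is assumed to vary like the other groups. On slide 1 the counts were 3, 0, 0, 2 and 0, and 1 gene, Chek1, was called higher in Si2AK against Si1AK, the group through which alone it passed the filter on dim probes being Si2AK. On slide 2 alone they were 1, 0, 0, 2 and 0. Slide as a block gave 5 in Si1AK against NT. It also called more of the 10 genes lower in Si2AK against SiC, in Si2AK against NT (Smc1a and Smc3) and in Si2AK against Si1AK (Timeless). When a fit held just the 2 groups of a comparison, the count was 0 in Si2AK against SiC and 1 in Si1AK against SiC. With each array left out in turn the counts were 5, 3 and 2 throughout in the first 3 comparisons, 4 to 5 in Si2AK against NT and 2 to 3 in Si1AK against NT. Without both arrays of raised signal the counts in the same order were 5, 4, 2, 5 and 4. Deviations from group means of same-numbered arrays correlated at -0.692 to 0.735 (median 0.176), with 12 of 19 pairs over 0.1. Those of other pairs correlated at -0.849 to 0.874 (median -0.0323), with 20 of 54 over 0.1. These values do not settle whether the replicate numbers pair the arrays. With the replicate block 2 calls of the 10 genes were lost and no other, Esco2, Si2AK against NT (-0.55, adjusted p = 0.0945) and Wdhd1, Si2AK against NT (-0.25, adjusted p = 0.0943). Over all genes, 260 lower and 677 higher calls in Si1AK against SiC became 2 and 3 with median scaling, 86 and 311 with no filter on dim probes, 481 and 899 with the slide block, and 72 and 176 with only those 2 groups. The 998 and 1820 in Si2AK against SiC became 1 and 0, 533 and 989, 1270 and 2230, and 20 and 70. With median scaling the 1313 and 1351 in Si2AK against Si1AK became 10 and 4, the 1640 and 1702 in Si2AK against NT 0 and 0, and the 648 and 861 in Si1AK against NT 0 and 6. With no filter they became 823 and 766, 970 and 1055, and 254 and 465. On slide 1 alone, calls in Si1AK against SiC, Si2AK against SiC, Si2AK against Si1AK, Si2AK against NT and Si1AK against NT were 0 and 0, 150 and 248, 201 and 162, 148 and 259, and 2 and 3, and on slide 2 alone 10 and 24, 76 and 104, 230 and 158, 249 and 316, and 8 and 55. Without both arrays of raised signal, Si1AK against NT gave 1608 and 1516, and Si2AK against SiC 924 and 1183. The slide block gave 1061 and 1167 in Si1AK against NT. A fit of just 2 groups gave 1072 and 1153 in Si1AK against NT and 1079 and 1312 in Si2AK against NT. With each array left out in turn, lower calls ran from 91 to 240 in Si1AK against SiC, 648 to 1158 in Si2AK against SiC, 1089 to 1464 in Si2AK against NT and 290 to 496 in Si1AK against NT.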
